A study of Xenopus laevis with 4 samples.

Results

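RNA polymerases, the general transcription factors that place them on promoters, and the Mediator complex that links them to activators form the machinery that an embryo needs to begin transcribing its own genome. Genes of this machinery were taken from a table of Xenopus laevis embryos by their names: every feature whose symbol, without the final .L or .S, begins with polr1, polr2 or polr3, with gtf, taf or med and a digit, or is tbp, tbpl1 or tbpl2. The rule found 123 of 49078 features, which carry 96 symbols. The .L and .S endings mark the copies on the long and short chromosomes of this allotetraploid frog, which are similar enough that a read can fit both.

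The EU-RNA group holds 2 libraries from embryos microinjected at the 1-cell stage with 10 nl of 5-ethynyl uridine (EU) at 50 mM. EU enters RNA made after the injection, and this RNA was biotinylated and captured on streptavidin beads. The Normal group holds 2 libraries of total RNA from normal embryos, which the labels set apart from the injected ones, so it contains the maternal store together with new RNA. All embryos had reached the mid-blastula transition at roughly 9 hours of development, when large-scale transcription begins. No genotype, strain or number of pooled embryos is given in the labels, and all 4 libraries were made with a library kit sold for human formalin-fixed tissue. Injection and capture both separate the groups, so their effects cannot be told apart, and whole embryos were used, so fewer cells making an RNA and less RNA per cell cannot be told apart either.

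As background, RNA polymerase I makes ribosomal RNA, RNA polymerase II makes messenger RNA, and RNA polymerase III makes transfer RNA, 5S ribosomal RNA and other small RNAs. TBP and its associated factors (TAFs) recognise core promoters, TFIIA, TFIIB, TFIIE, TFIIF and TFIIH complete the RNA polymerase II initiation complex, and TFIIIA and TFIIIC serve RNA polymerase III. Eggs of Xenopus carry maternal RNA and protein for much of this machinery, and TBP protein is known to be scarce in the frog embryo before the mid-blastula transition although its messenger RNA is present.

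Library totals ran from 81201990 to 117849586 estimated counts in EU-RNA and from 47598265 to 209445802 in Normal. Blastula genes fixed as markers (19 features of 10 symbols) summed to 10380 and 10220 CPM in EU-RNA, against 3772 and 3874 CPM in Normal. CPM are counts scaled to a common library size after TMM normalisation. Of the oocyte markers, 10 features of 6 symbols summed to 264.5 and 303.1 CPM in EU-RNA, against 436.0 and 427.7 CPM in Normal, with 1 feature, the .S copy of gtf3a, at 0 throughout. Markers of later tissues, 16 features of 9 symbols, summed to 51.4 and 37.1 CPM in EU-RNA, against 9.05 and 11.8 CPM in Normal, with 11 features at 0 in both EU-RNA libraries and 7 at 0 in all libraries. The part of these differences in the results below was not tested.

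Few transcripts of the machinery differed between captured and total RNA by the test used. Of 123 members, 117 passed the filter on low counts, and among these 2 were higher and 1 was lower in EU-RNA at a Benjamini-Hochberg adjusted p below 0.05 in edgeR's quasi-likelihood test. Over all 26543 features tested, 4.69% were called higher, 0.889% lower and 5.58% in either direction, so the members' 2.56% is not above the background. The called genes were gtf2h2.S and taf5.S, which were higher, and taf4b.S, which was lower. Without regard to the test, the EU-RNA libraries both lay below the Normal libraries for 44 of the 117 tested members and both above them for 21. Over all features tested, 30.6% lay below and 26.4% above. The median log2 fold change of the tested members, EU-RNA over Normal, was -0.30, and that of all tested features was 0.0087. At an average log2 CPM of 3 or more, the median was -0.32 for 90 members and -0.08 for all 12933. At that level 3.33% of the members were called in either direction, against 10.8% of all features. These fold changes are positions relative to the average transcript of the table and not absolute amounts.

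**Figure D1:**
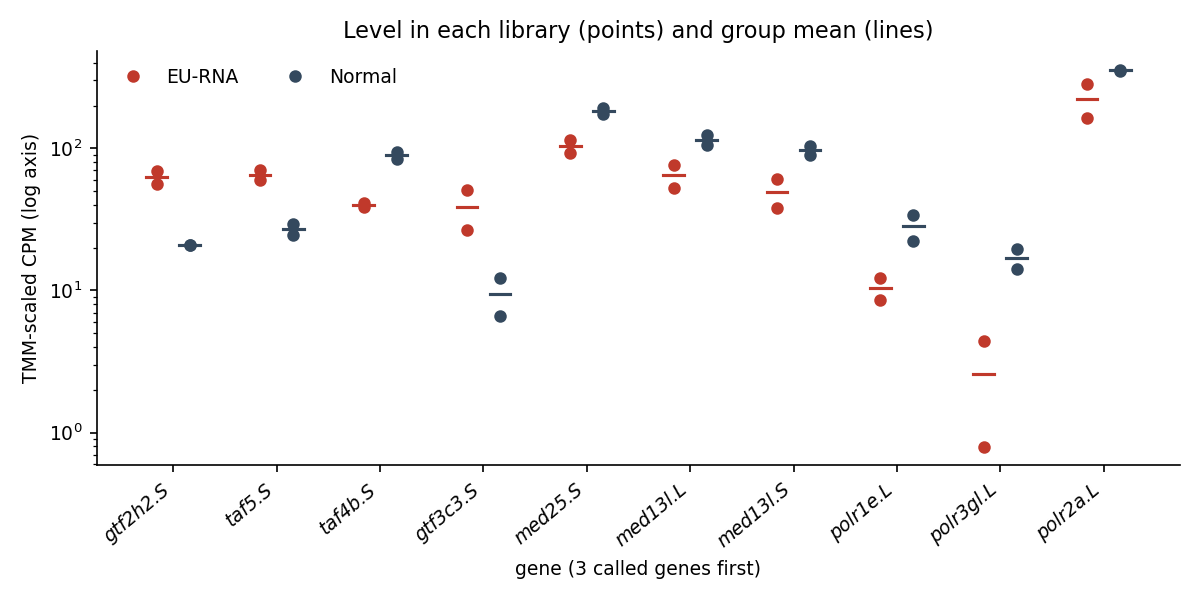
Level of 10 members in each library, in TMM-scaled CPM on a log axis, with EU-RNA to the left of Normal for each gene. Points are libraries and lines are means of 2 libraries. For every gene drawn the groups do not overlap, but only gtf2h2.S, taf5.S and taf4b.S passed the edgeR test. The 10 genes are a selection and do not stand for all members. The groups overlap for 52 of the 117 tested members and for 11424 of all 26543 tested features.

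The catalytic and structural subunits of RNA polymerase II showed no call among 8 tested features, with log2 fold changes from -1.21 to 0.85 and a median of -0.43. polr2a.L, which encodes the largest subunit with the repeated tail that is phosphorylated during transcription, was at 163 and 282 CPM in EU-RNA, against 348 and 358 CPM in Normal. Both captured libraries lay below both total RNA libraries, yet they differed from each other by more than the fold between the group means, and the log2 fold change of -0.67 with an SE of 0.29 (adjusted p = 0.224 by edgeR) did not pass. DESeq2 gave polr2a.L an adjusted p of 0.0496, within a range of 1.22e-07 to 0.644 over all alternatives. Its log2 fold change was -1.16 with EU-RNA replicate 2 left out and -0.38 with EU-RNA replicate 1 left out.

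Of the 8 tested RNA polymerase II features, 2 had a positive and 6 a negative log2 fold change, where 49.7% of all tested features were negative. The groups overlapped for 3 of the 8, as they did for 11424 of all 26543 tested features. polr2g.L and polr2d.L, named after their values were seen, encode the pair of subunits that form the stalk of the enzyme. polr2g.L was at 16.9 and 10.3 CPM in EU-RNA and 5.20 and 9.87 CPM in Normal, and polr2d.L at 15.2 and 12.5 CPM in EU-RNA and 7.79 and 9.65 CPM in Normal. Both lay above Normal in each EU-RNA library, by 0.85 (adjusted p = 0.487 by edgeR) and 0.67 (adjusted p = 0.512 by edgeR) on the log2 scale. They are the 2 features with a positive value, and 26.4% of all tested features lay above Normal in this way. polr2b.S, the second largest subunit, was at 10.2 and 30.4 CPM in EU-RNA and 32.7 and 26.4 CPM in Normal, with overlap. On the lower side, polr2c.S, a subunit used early in the enzyme's assembly, was at 4.26 and 7.93 CPM in EU-RNA and at 15.9 and 12.3 CPM in Normal, a log2 fold change of -1.21 with an SE of 0.61 (adjusted p = 0.303 by edgeR).

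RNA polymerase I was represented by 3 tested genes of its own, none called. polr1a.L, the largest subunit, was at 22.7 and 13.3 CPM in EU-RNA and 21.3 and 20.5 CPM in Normal, so the Normal values fell within the range of the EU-RNA values. polr1e.L, whose protein forms part of a subunit pair that aids initiation, was at 8.51 and 12.3 CPM in EU-RNA, against 22.4 and 34.0 CPM in Normal. The groups do not overlap for polr1e.L, but its log2 fold change of -1.44 (SE 0.42) had an edgeR adjusted p of 0.121. polr1b.L, the second largest subunit, was at 17.5 and 42.1 CPM in EU-RNA and at 28.9 and 44.0 CPM in Normal, with overlap.

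RNA polymerase III had the widest range among the polymerases, with log2 fold changes from -2.70 to 3.74 and a median of 0.02 over 8 tested features, none of which was called. The high end of that range was a gene of low level. polr3k.S, a small subunit with a role in RNA cleavage and termination, had 542 and 459 counts in EU-RNA and 6 and 110 counts in Normal. Its level was 6.37 and 3.42 CPM in EU-RNA, against 0.135 and 0.588 CPM in Normal, and its log2 fold change of 3.74 (SE 1.62) had an edgeR adjusted p of 0.225. polr3gl.L encodes one of a pair of alternative subunits, and in mammals its partner POLR3G is the form of pluripotent cells. polr3gl.L was at 0.799 and 4.40 CPM in EU-RNA, against 19.7 and 14.2 CPM in Normal, a log2 fold change of -2.70 with an SE of 0.93 (adjusted p = 0.162 by edgeR). The alternative subunit gene polr3g.L, named after its values were seen, was at 6.46 and 5.07 CPM in EU-RNA and 13.0 and 13.2 CPM in Normal, a log2 fold change of -1.18 with an SE of 0.58 (adjusted p = 0.287 by edgeR). Both members of this pair thus lay below Normal in both EU-RNA libraries, and neither passed, although polr3gl.L was called lower under 4 of 12 alternatives, with adjusted p from 6.77e-10 to 0.813. polr3a.L, the largest subunit, was at 11.6 and 6.77 CPM in EU-RNA and at 8.66 and 14.3 CPM in Normal, with overlap.

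Subunits that the polymerases share had a median close to the average transcript, a log2 fold change of -0.05 over 9 of 10 features tested, and no call. Single features ran from -1.07 to 0.98. polr2e.S, a subunit of all 3 enzymes, was at 8.74 and 10.1 CPM in EU-RNA, against 22.6 and 16.9 CPM in Normal, a log2 fold change of -1.07 with an SE of 0.44 (adjusted p = 0.206 by edgeR). polr2k.L, another of them, was at 7.07 and 3.11 CPM in EU-RNA and 8.53 and 10.8 CPM in Normal (log2 fold change -0.93, SE 0.76, edgeR adjusted p = 0.549). The copy polr2k.S was split within EU-RNA, with 0 and 120 counts, had 0 and 13 counts in Normal, and was not tested.

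Of the 4 features of the TBP family none was called. tbp.L was at 41.6 and 45.7 CPM in EU-RNA and at 44.7 and 45.2 CPM in Normal, a log2 fold change of -0.04 with an SE of 0.22 (adjusted p = 0.945 by edgeR). tbp.S was at 40.5 and 74.2 CPM in EU-RNA and 42.3 and 42.1 CPM in Normal (0.44, SE 0.33, edgeR adjusted p = 0.496). The .L copy was thus nearly level in all libraries, while EU-RNA replicate 2 alone stood high for the .S copy, which was called higher with EU-RNA replicate 1 left out (0.76, adjusted p = 0.00689), in a range of 0.00689 to 0.878 over the alternatives. tbpl1.L, the TBP-like factor that Xenopus embryos need for early transcription, was at 43.3 and 14.1 CPM in EU-RNA, against 11.7 and 14.1 CPM in Normal. Only EU-RNA replicate 1 stood clear of the Normal libraries, and the log2 fold change of 1.15 with an SE of 0.57 (adjusted p = 0.291 by edgeR) became 1.70 when EU-RNA replicate 2 was left out (adjusted p = 4.80e-06, in a range up to 0.918 over the alternatives) and 0.08 when EU-RNA replicate 1 was left out. tbpl2.L, the member that takes over from TBP in oocytes, had 0 counts in either EU-RNA library and 0 and 169 counts in Normal. It did not pass the filter, and a count of 0 allows up to 0.0352 and 0.0224 CPM in the EU-RNA libraries and 0.0675 CPM in Normal replicate 1, from counting error only.

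TFIID, the complex of TBP and its TAFs that first binds RNA polymerase II promoters, held 2 of the 3 calls, in opposite directions, among 17 tested features of its TAFs. The share called was 11.8%, where 5.58% of all tested features were called, and the difference was not tested. taf5.S, which encodes a WD-repeat subunit in the core of TFIID, was at 59.4 and 70.4 CPM in EU-RNA, against 24.6 and 29.3 CPM in Normal. The groups are well apart, at 64.9 ± 7.76 and 26.9 ± 3.33 CPM (SD, n = 2 each, EU-RNA and Normal), with a log2 fold change of 1.27 with an SE of 0.24 (adjusted p = 0.0396 by edgeR). Its copy taf5.L was at 48.1 and 57.2 CPM in EU-RNA and 36.2 and 39.7 CPM in Normal, also without overlap, with a log2 fold change of 0.47 with an SE of 0.23 (adjusted p = 0.287 by edgeR) that did not pass. With the copies summed, taf5 did not pass either (0.83, SE 0.20, edgeR adjusted p = 0.0756), and taf5.S itself was lost when Normal replicate 1 (adjusted p = 0.232) or Normal replicate 2 (adjusted p = 0.0625) was left out, in a range of 9.35e-07 to 0.232 over the alternatives.

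taf4b.S, a paralogue of taf4 that in mice is needed in oocytes, was at 38.4 and 41.0 CPM in EU-RNA, against 83.6 and 94.9 CPM in Normal. The means were 39.7 ± 1.88 CPM in EU-RNA and 89.3 ± 7.99 CPM in Normal (SD, n = 2 each), a log2 fold change of -1.17 with an SE of 0.21 (adjusted p = 0.0316 by edgeR). Its copy taf4b.L had 0 counts in either EU-RNA library and 2 and 28 counts in Normal, and was not tested. taf4b.S was no longer called when Normal replicate 1 (adjusted p = 0.0694) or Normal replicate 2 (adjusted p = 0.162) was left out or when libraries were scaled by their totals alone (adjusted p = 0.0639), in a range of 1.03e-06 to 0.162 over the alternatives. The related taf4.L, named after its values were seen, was at 146 and 137 CPM in EU-RNA and 100.0 and 119 CPM in Normal, above in both libraries but not called (0.37, SE 0.19, edgeR adjusted p = 0.319). The difference between the paralogues' ratios was not tested.

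The remaining 15 tested TFIID TAFs had log2 fold changes from -1.39 to 1.18. Both ends were features named for their values. taf2.S, a promoter-binding subunit, was at 8.62 and 12.0 CPM in EU-RNA, against 25.9 and 28.2 CPM in Normal (-1.39, SE 0.38, edgeR adjusted p = 0.103). taf12.S, a histone-fold subunit, was at 26.0 and 21.2 CPM in EU-RNA, against 11.5 and 9.34 CPM in Normal (1.18, SE 0.39, edgeR adjusted p = 0.156). The groups are apart for each, in opposite directions, although neither passed. TAFs that belong to other complexes were not called either: 2 tested features of SL1, the RNA polymerase I factor, 3 TAF-like subunits of the coactivator SAGA, and taf15.L, an RNA-binding protein of the FET family.

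Among TFIIA, TFIIB, TFIIE, TFIIF and TFIIH, 16 of 17 features were tested and 1 was called, gtf2h2.S, with a group median of -0.42. The share called was 6.25%, near the 5.58% of all tested features. gtf2h2 encodes a subunit of the TFIIH core that stimulates a helicase used in nucleotide excision repair. gtf2h2.S was at 68.8 and 56.0 CPM in EU-RNA, against 21.0 and 20.8 CPM in Normal. The EU-RNA libraries were far above the closely matched Normal libraries, with means of 62.4 ± 9.05 CPM in EU-RNA and 20.9 ± 0.136 CPM in Normal (SD, n = 2 each) and a log2 fold change of 1.58 with an SE of 0.25 (adjusted p = 0.0212 by edgeR). It was called higher under all 12 alternatives, with log2 fold changes of 1.36 to 1.83 and adjusted p of 8.51e-09 to 0.0381, and it was the only member of which this held. The other TFIIH features of the name rule were not called, with gtf2h1.L at 0.48, gtf2h4.S at 0.38 and gtf2h3.L at -1.03 on the log2 scale.

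TFIIA, which steadies TBP on DNA, had 5 tested features that divided by gene and copy, none called. gtf2a1.S was at 186 and 235 CPM in EU-RNA, against 278 and 287 CPM in Normal, and gtf2a1.L at 63.7 and 48.9 CPM in EU-RNA, against 78.6 and 79.0 CPM in Normal. For the smaller subunit gene, gtf2a2.S was at 7.72 and 8.54 CPM in EU-RNA, against 14.0 and 12.8 CPM in Normal, and gtf2a2.L at 10.3 and 13.4 CPM in EU-RNA, against 8.60 and 4.72 CPM in Normal. The copies of gtf2a1 thus lay below Normal together and those of gtf2a2 on opposite sides, with adjusted p from 0.253 to 0.514 by edgeR for these copies. The remaining feature, gtf2a1l.L, was at 4.22 and 5.94 CPM in EU-RNA, against 3.06 and 3.37 CPM in Normal (0.66, SE 1.02, edgeR adjusted p = 0.779).

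TFIIF and TFIIE features lay below Normal in both EU-RNA libraries for all 5 that were tested, against a background of 30.6%, and none was called. Of all 16 tested features of TFIIA, TFIIB, TFIIE, TFIIF and TFIIH, 9 lay below and 5 above. Over all tested features, 30.6% lay below and 26.4% above. Both tested TFIIB features were among those above, and these shares were not tested. gtf2f2.S, the smaller TFIIF subunit, which helps bring the polymerase to the promoter, was at 25.2 and 41.8 CPM in EU-RNA, against 54.6 and 66.5 CPM in Normal (-0.86, SE 0.31, edgeR adjusted p = 0.164). The gene models of gtf2f2.S and of 12 other members overlap another gene in RefSeq's annotation of assembly 10.1, and reads of overlapping genes could not be separated without strand. gtf2b.L, the gene of TFIIB, which bridges TBP and the polymerase, was at 24.8 and 24.7 CPM in EU-RNA, against 14.9 and 14.6 CPM in Normal. The replicates were nearly equal within each group, but the log2 fold change of 0.75 with an SE of 0.34 (adjusted p = 0.243 by edgeR) did not pass. gtf2b.S was rare, with 34 and 168 counts in EU-RNA and 0 and 41 counts in Normal. gtf2e2.S had 0 counts in all libraries.

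For RNA polymerase III promoters, 6 of 7 features of TFIIIA and TFIIIC were tested and none was called. gtf3c3.S, of the TFIIIC complex that binds promoter elements within transfer RNA genes, was at 51.2 and 26.7 CPM in EU-RNA, against 6.64 and 12.2 CPM in Normal, a log2 fold change of 2.04 with an SE of 0.49 (adjusted p = 0.0769 by edgeR). Both EU-RNA libraries stood above both Normal libraries. It passed under 7 of 12 alternatives, with adjusted p from 7.68e-11 to 0.115, among them DESeq2 (adjusted p = 0.00206). gtf3c2.L, another TFIIIC subunit, went the other way, at 13.5 and 17.6 CPM in EU-RNA and 28.7 and 25.2 CPM in Normal (-0.79, SE 0.35, edgeR adjusted p = 0.229). gtf3a.L, whose protein TFIIIA binds the 5S ribosomal RNA genes, had a log2 fold change of -0.0071, and gtf3a.S had 0 counts in all libraries.

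All 38 Mediator features were tested, and none was called in either direction by edgeR. Of these, 27 had a negative log2 fold change (71.1%, against 49.7% of all tested features), and the median was -0.39. Both EU-RNA libraries lay below Normal for 14 and above for 4, where 30.6% and 26.4% of all features did. At an unadjusted p below 0.05, 5 were lower and 0 higher, where 12.3% of all features were in each direction. DESeq2 called 4 lower and 0 higher, where it called 7.08% of all features lower and 11.3% higher. The lower counts are therefore near the background. The share with a negative sign was above it and the higher counts were below it, and these departures were not tested. By module the median log2 fold change was -0.64 for 8 features of the head, -0.33 for 14 of the middle, -0.43 for 13 of the tail and -0.83 for 3 of the kinase module. Differences between modules were not tested.

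The kinase module, which can detach from Mediator and restrain it, and the tail, which meets activators, held the 4 Mediator features with the smallest p. med13l.S was at 37.8 and 61.2 CPM in EU-RNA, against 103 and 89.9 CPM in Normal (-0.96, SE 0.28, edgeR adjusted p = 0.125). med13l.L was at 76.0 and 52.9 CPM in EU-RNA, against 124 and 105 CPM in Normal (-0.83, SE 0.25, edgeR adjusted p = 0.129). Both copies lay below Normal in every EU-RNA library, and with their counts summed med13l was called lower (-0.92, SE 0.18, edgeR adjusted p = 0.0424), in a range of 4.41e-08 to 0.452 over the alternatives for the .S copy. Each copy overlaps a gene on the same homeolog chromosome, MGC75582, in RefSeq. The paralogue med13.L was level with the average transcript, at 282 and 251 CPM in EU-RNA and 219 and 254 CPM in Normal (0.17, SE 0.19, edgeR adjusted p = 0.681).

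In the tail, med25.S, which binds activation domains, was at 93.3 and 115 CPM in EU-RNA, against 192 and 174 CPM in Normal (-0.82, SE 0.20, edgeR adjusted p = 0.0808). med27.L was at 16.4 and 26.2 CPM in EU-RNA, against 46.2 and 39.2 CPM in Normal (-1.01, SE 0.33, edgeR adjusted p = 0.153). The groups do not overlap for either gene, and med25.S was called lower under 5 of 12 alternatives, with adjusted p from 1.08e-05 to 0.535. In the head, med20.S was at 8.98 and 16.1 CPM in EU-RNA, against 23.9 and 25.3 CPM in Normal (-0.97, SE 0.42, edgeR adjusted p = 0.230), and med22.L at 6.99 and 11.3 CPM in EU-RNA, against 23.7 and 11.9 CPM in Normal (-0.96, SE 0.56, edgeR adjusted p = 0.376). For med22.L the gap between the groups was smaller than the gap between the Normal libraries.

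In the middle module, med7.L was at 13.8 and 6.35 CPM in EU-RNA, against 2.45 and 2.79 CPM in Normal (1.94, SE 0.85, edgeR adjusted p = 0.229). It was called higher with EU-RNA replicate 2 left out (2.35, adjusted p = 0.00619) and was at 1.22 with EU-RNA replicate 1 left out (adjusted p = 0.443). The gene of the nuclear receptor-binding subunit appeared as 2 features. The feature named med1 was at 62.8 and 75.7 CPM in EU-RNA and 67.3 and 71.2 CPM in Normal, a log2 fold change of 0.00078. The feature med1.L had 0 counts in either EU-RNA library and 38 and 314 counts in Normal. Its level was at least 92.6-fold lower in EU-RNA, taking a floor of 3 counts over the EU-RNA group, from counting error only. The Mediator median is the same with med1.L at that bound. med1.L did not pass edgeR (adjusted p = 0.159) and did pass DESeq2 (adjusted p = 0.0196). With the counts of med1 and med1.L summed, the log2 fold change was -0.05 (SE 0.21, edgeR adjusted p = 0.92). The name med1.L matched no RefSeq symbol, and the sources used here do not give how reads were divided between the 2 features.

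**Figure D2:**
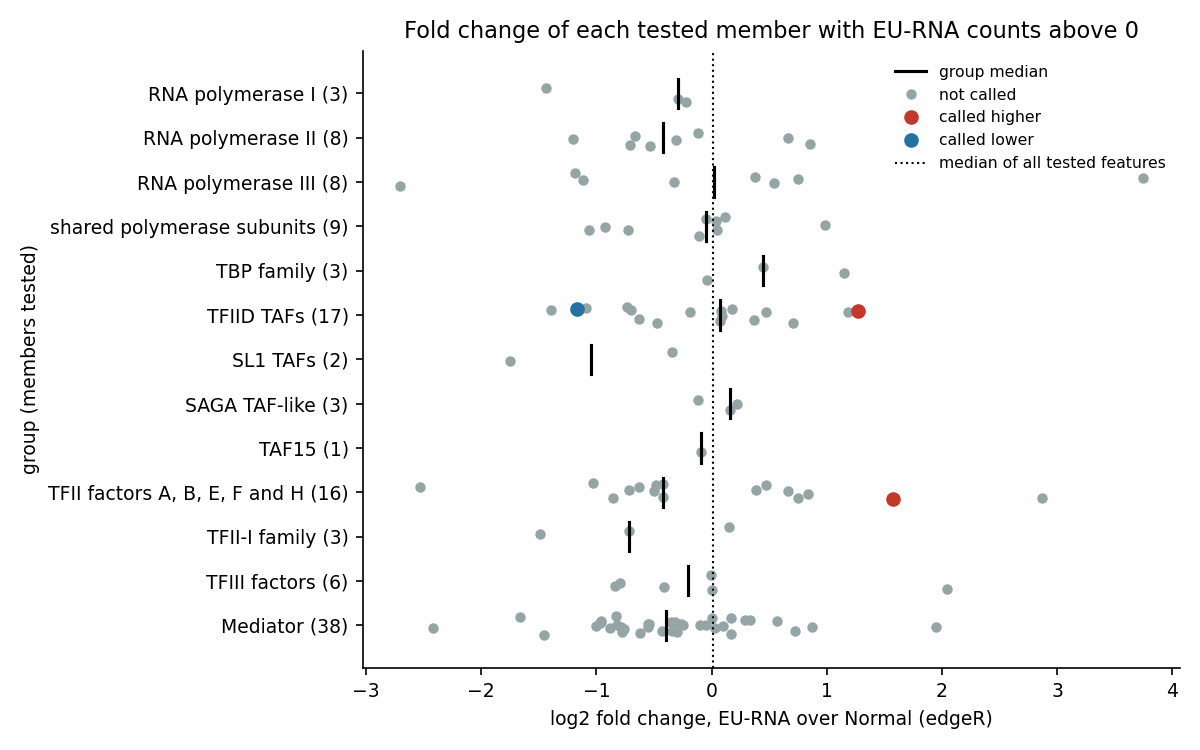
Log2 fold change, EU-RNA over Normal, of each tested member with EU-RNA counts above 0, by group, with the number tested in parentheses (med1.L, at 0 in EU-RNA, is not drawn). Short vertical lines are group medians, the dotted line is the median of all tested features (0.0087), and coloured points are the 3 called genes.

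Set side by side, the median log2 fold changes were -0.29, -0.43 and 0.02 for RNA polymerases I, II and III. They were -0.42 for TFII factors A, B, E, F and H and -0.39 for Mediator. The replicate spread of these medians, as an SD that combines both groups, was 0.38, 0.57, 0.27, 0.21 and 0.21 in the same order. RNA polymerase III lay farther from the TFII factors and from Mediator than any of their spreads. Its median was -0.34 with EU-RNA replicate 1 left out and -0.29 with EU-RNA replicate 2 left out. The other distances among these 5 groups were within the larger of the spreads involved. Ranges overlapped among all 5 groups, from -1.44 to -0.22 in RNA polymerase I and from -2.53 to 2.87 in the TFII factors. The TFIID TAFs had a median of 0.07 with a spread of 0.20. By edgeR on all libraries, their distance from the TFII factors and from Mediator was larger than any of their spreads. By limma-voom the medians were -0.13 for the TFIID TAFs, -0.42 for the TFII factors and -0.45 for Mediator. With homeologs summed they were -0.29, -0.45 and -0.32 in the same order. With EU-RNA replicate 1 left out they were -0.32, -0.31 and -0.35. Differences between groups were not tested.

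The estimated ratios of homeologs of the machinery were not always alike, but no pair differed by the limma test on all libraries. Both copies were tested for 21 symbols, and the sign of the log2 fold change was shared by the copies of 13. By the fold changes of edgeR, the largest differences were at med8 (-2.42 for .L and 0.03 for .S), gtf2b (0.75 and 2.87), taf9b (-1.09 and 0.71) and med4 (0.87 and -0.79). med8.L was rare, at 0.388 and 0.984 CPM in EU-RNA and 3.02 and 4.35 CPM in Normal, whereas med8.S was at 36.5 and 23.0 CPM in EU-RNA and 32.3 and 25.9 CPM in Normal. med4.L was at 7.26 and 8.78 CPM in EU-RNA, against 3.74 and 5.02 CPM in Normal, and med4.S at 3.62 and 12.5 CPM in EU-RNA, against 15.6 and 12.3 CPM in Normal. taf9b.L was at 2.81 and 8.49 CPM in EU-RNA and 7.36 and 16.8 CPM in Normal, and taf9b.S at 10.2 and 4.65 CPM in EU-RNA and 2.79 and 6.30 CPM in Normal. By limma on the .L to .S ratio in each library, 4.2% of 4523 pairs in the whole table differed between EU-RNA and Normal, and 0 of the 21 pairs did. The smallest limma adjusted p among them was 0.242, for taf5. Of the 21 pairs 0 had an unadjusted limma p below 0.05, where 941 of all 4523 pairs did. For the named pairs the limma difference, .L minus .S, was -1.85 for med8 (SE 0.95, limma adjusted p = 0.297), -1.74 for taf9b (SE 1.07, limma adjusted p = 0.382), 1.78 for med4 (SE 0.95, limma adjusted p = 0.313) and -0.34 for gtf2b (SE 1.12, limma adjusted p = 0.904). For gtf2b the limma difference was thus far smaller than the distance between its edgeR fold changes, and smaller than those of gtf2a2 (1.52) and taf12 (-1.11). With EU-RNA replicate 2 left out, 8 of the 21 pairs passed, where 36.4% of all pairs did, among them med8 (-2.55), taf9b (-2.99) and med4 (2.48). With EU-RNA replicate 1 left out, only polr2e passed, where 21.8% of all pairs did, and the differences were -1.15 for med8, -0.49 for taf9b and 1.08 for med4, with limma adjusted p of 0.305, 0.724 and 0.334.

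**Figure D3:**
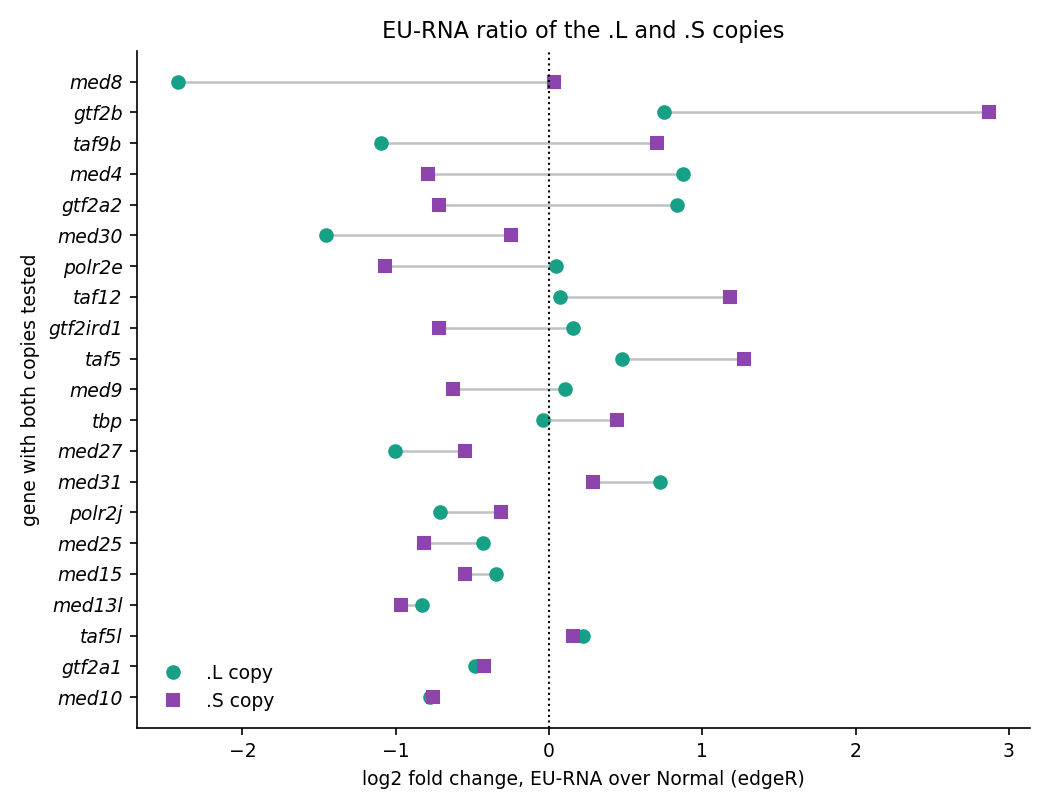
Log2 fold change, EU-RNA over Normal, of the .L copy (circles) and the .S copy (squares) of the 21 symbols with both copies tested, in order of the distance between copies. The copies of med8 are farthest apart and those of med10 closest, and no distance passed the limma test over all pairs.

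The EU-RNA libraries differed more from each other than the Normal libraries did. Over the 117 tested members the SD of the log2 ratio of replicate 1 to replicate 2 was 1.23 for EU-RNA and 0.45 for Normal, and over all tested features it was 1.36 for EU-RNA and 0.74 for Normal. In EU-RNA 5 members differed at least 8-fold between replicates (4.27%, against 4.98% of all tested features), and in Normal 0 did. taf10.L, a TAF found in both TFIID and SAGA, had 1363 and 65 counts in EU-RNA and 370 and 1945 in Normal. med6.L, of the Mediator head, had 28 and 1822 counts in EU-RNA and 1253 and 3012 in Normal. taf1b.L, of SL1, had 14 and 1310 counts in EU-RNA, against 710 and 3280 in Normal, polr2j.S had 9 and 1132 counts, against 216 and 1077, and gtf2i.S had 229 and 3455 counts, against 1925 and 6911. Replicate 1 was the low EU-RNA library in 4 of these 5 and replicate 2 in taf10.L. At an average log2 CPM of 3 or more the share of members with such splits was 4.44% in EU-RNA, against 1.07% of all features at that level.

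**Figure D4:**
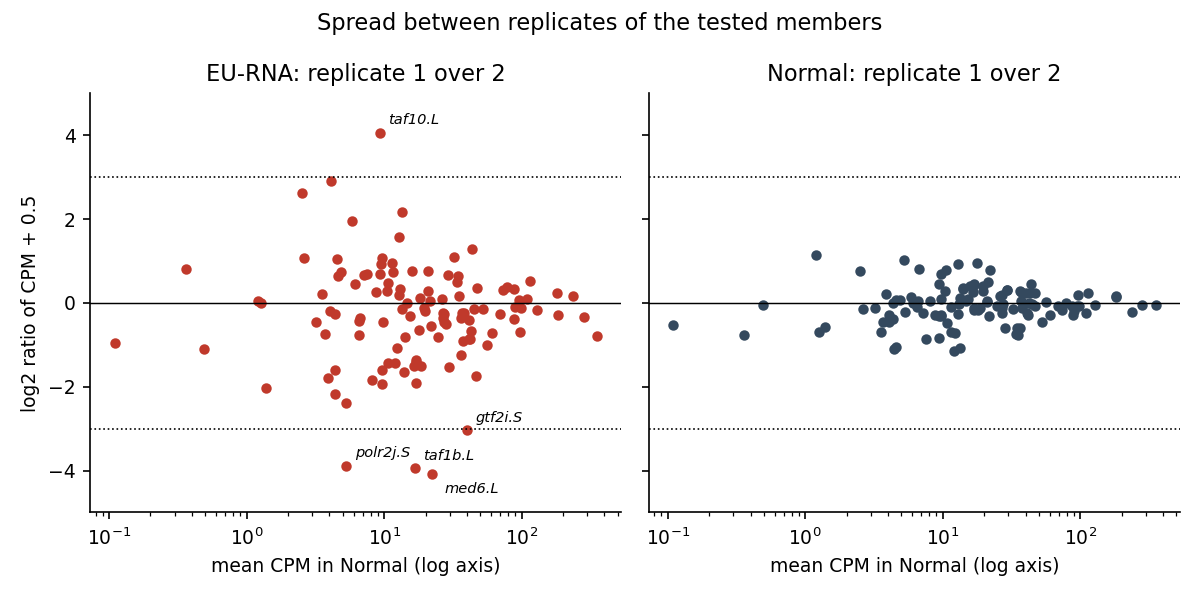
Log2 ratio of replicate 1 to replicate 2 (CPM + 0.5) of the 117 tested members against their mean CPM in Normal on a log axis, for EU-RNA on the left and Normal on the right. Dotted lines mark an 8-fold difference, which 5 members pass in EU-RNA and 0 in Normal.

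With an EU-RNA library left out, the spread between EU-RNA libraries no longer entered the test and many more members were called. With replicate 1 of EU-RNA left out, edgeR called 5 members higher and 18 lower of 120, where 10.4% and 10.1% of all features were called. With replicate 2 of EU-RNA left out it called 7 higher and 35 lower of 119, where 14.9% and 17.0% of all features were. A single captured library is then taken to vary as the Normal libraries do. gtf2h2.S, taf5.S and taf4b.S were called in each case. Among the genes named by the rule, polr1e.L, polr3gl.L, med25.S, med27.L and both copies of med13l were called lower, and gtf3c3.S higher, with either EU-RNA library left out. With replicate 2 left out and not with replicate 1 left out, polr2a.L, polr1b.L (-1.10), polr2c.S (-1.78), polr2e.S (-1.23), gtf2f2.S (-1.31), gtf3c2.L (-1.05), med20.S (-1.50), med22.L (-1.41), taf9b.L (-2.14) and med4.S (-1.999) were called lower on the log2 scale, and polr3k.S (4.09), tbpl1.L and med7.L higher. DESeq2 on all libraries called 4 members higher and 9 lower, where it called 11.3% and 7.08% of all features. The members DESeq2 added were gtf3c3.S and polr3k.S, higher, and polr2a.L, polr1e.L, polr3gl.L, taf2.S, med1.L, med25.S and both copies of med13l, lower. Without a filter on low counts edgeR called 3 members higher and 9 lower, where it called 7.09% and 3.23% of all features.

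Other genes of the same processes that the name rule misses gave a like picture. A list of 67 features held remaining TFIIH and Mediator kinase subunits and RNA polymerase I and III initiation factors. It also held elongation and assembly factors and mitochondrial transcription genes. Of the 67, 65 were tested and 0 were called in either direction by edgeR, where 5.58% of all tested features were. Their median log2 fold change was -0.26. At an unadjusted p below 0.05, 4 were higher and 11 lower, where 12.3% of all features were in each direction. DESeq2 called 3 higher and 6 lower, where it called 11.3% and 7.08% of all features, and limma-voom called 0 higher and 3 lower, where it called 4.25% and 1.45%. Of 25 tested elongation and termination features, 20 had a negative log2 fold change (80.0%, against 49.7% of all tested features). Both EU-RNA libraries lay below Normal for 15 of the 25, where 30.6% of all features did. At an unadjusted p below 0.05 by edgeR, 7 were lower and 0 higher, where 12.3% of all features were in each direction. No test of this list was run. The features named next were chosen for their values. leo1.S, of the PAF elongation complex, was at 126 and 139 CPM in EU-RNA, against 234 and 236 CPM in Normal (-0.83, SE 0.18, edgeR adjusted p = 0.0582). supt6h.L, a histone chaperone that travels with RNA polymerase II, was at 142 and 126 CPM in EU-RNA, against 226 and 241 CPM in Normal (-0.80, SE 0.19, edgeR adjusted p = 0.0684). On the other side, snapc3.L, of the complex that starts small nuclear RNA genes, was at 42.3 and 24.4 CPM in EU-RNA, against 5.69 and 9.64 CPM in Normal (2.12, SE 0.47, edgeR adjusted p = 0.0624). ubtf.L, the gene of the ribosomal DNA factor UBF, was at 122 and 85.9 CPM in EU-RNA, against 56.6 and 53.5 CPM in Normal (0.92, SE 0.24, edgeR adjusted p = 0.0950). Its copy ubtf.S was at 135 and 115 CPM in EU-RNA and 117 and 97.3 CPM in Normal, with overlap (0.23, SE 0.20, edgeR adjusted p = 0.596). Of the TFIIH subunits outside the name rule, the kinase gene cdk7.L had a log2 fold change of 0.84 (edgeR adjusted p = 0.165) and the helicase gene ercc2.L one of -1.10 (edgeR adjusted p = 0.186).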

How the data were processed

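The authors deposited 1 table of whole-number estimated counts for genes, a column per library, with 0 columns left unused here. The tools bcl2fastq and Salmon 0.12.0 are named per the submitters' processing notes. No coordinates, sequences or length-scaled levels are printed and levels are not compared between genes, since the transcript set, genome build, strand setting and any length scaling are not given in the sources used here. edgeR 4.0.16 (R 4.3.3) was run on the rounded counts with TMM factors, filterByExpr and group as the only term, over all features, and tried on simulated data. The simulation gave both groups the same spread, whereas the EU-RNA libraries differed more than the Normal ones. Nothing is concluded from it here. SE is the log2 fold change over the square root of F. Alternatives were DESeq2 1.42.0 and its size factors, limma-voom 3.58.1, library size scaling, other filters, each library left out, a replicate block and summed homeologs. The limma test of homeolog ratios (pseudocount 0.5 CPM) and the medians and shares above an average log2 CPM of 3 were added after seeing the data. Members and lists were chosen with earlier results of these data known. Named genes are all calls, the TBP family, the largest polymerase subunits, the 2 smallest p per group, the 4 largest homeolog differences, and features at 0 in a group or split at 100 or more counts against 0; others are named for their values. Of the 123 members, 115 matched a RefSeq symbol. Nothing in the labels ties replicates to separate clutches. The p-values then measure only the spread between these samples, possibly technical, and floors cover counting error only.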

Additional observations from a re-analysis of the deposited data

How the results depend on the processing

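Depth limits the rarest members (tbpl2.L, taf4b.L, polr2k.S), and each group has 2 libraries. Scaling by library size only moved the median of all tested features to 0.28 from 0.0087. Relative to all features the members' median was -0.31, and -0.28 with that scaling. It was -0.14 by limma-voom and -0.09 with no filter, and with a library left out, where the filter passes more rare features, it ran from -0.48 to 0.02. On the fixed set at an average log2 CPM of 3 or more it was -0.24, and -0.37 to -0.20 with a library left out.

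Leaving out 1 library gave 1 to 7 members higher and 0 to 35 lower, 1197 to 4577 features of the table higher and 151 to 5218 lower, and 0 to 5 partner genes higher and 0 to 18 lower. Medians then ran from -0.46 to -0.25 for all members, -1.10 to -0.25 for RNA polymerase I, -0.89 to -0.07 for RNA polymerase II, -0.34 to 0.25 for RNA polymerase III, -0.19 to 0.062 for shared subunits, -0.32 to 0.050 for TFIID TAFs, -0.59 to -0.31 for TFII factors, -0.48 to -0.12 for TFIII factors and -0.62 to -0.35 for Mediator.

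DESeq2 called 4 members higher and 9 lower, 2990 and 1879 features of the table, and 3 and 6 partner genes. Without a filter 9 members were lower, with 2488 and 1134 features of the table and 3 and 5 partner genes. The strict filter called 598 features of the table lower and 1 and 2 partner genes, and limma-voom 385 features and 3 partner genes lower. Library size scaling called 0 members and 142 features lower and 2 partner genes higher, and gave medians of -0.001 for members, 0.21 for shared subunits, 0.32 for TFIID TAFs, -0.16 for TFII factors, 0.063 for TFIII factors and -0.14 for Mediator. The TFIID median was -0.13 by limma-voom and -0.29 with homeologs summed, where 1 member was higher and 2 lower (3.16% called, against 5.77% of all summed features).

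Replicate numbers are shared by the groups, but the labels do not say that they pair embryos, and same-numbered deviations correlated at 0.0038 over tested features. With the replicate block, 3 members were higher and 4 lower (5.98% called, against 9.3% of all features), 1789 features of the table were higher and 680 lower, and 2 and 4 partner genes were called. The members it added were gtf3c3.S, med13l.L, med13l.S and med25.S.

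Signs changed only for values that had not passed. With library size scaling tbp.L was at 0.22 and polr1a.L at 0.024. With homeologs summed tbp was at 0.19 (negative for tbp.L), med8 at -0.13 (positive for med8.S), taf9b at -0.37 (positive for taf9b.S) and med4 at -0.22 (positive for med4.L). With a library left out tbp.S ran from -0.11 to 0.76, polr1a.L from -0.71 to 0.069, polr3a.L from -0.81 to 0.086, polr1b.L from -1.10 to 0.16, med8.S from -0.40 to 0.28, taf9b.S from -0.011 to 1.41 and the gtf2b difference between copies from -0.82 to 0.15. That difference was 0.025 with a pseudocount of 1 CPM. The causes were not tested.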
